A study of Mus musculus with 51 samples.

Results

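The expression of 10 genes of the hypoxia response, namely Hif1a, Epas1, Egln1, Egln3, Vegfa, Adm, P4ha1, Bnip3, Ndrg1 and Ankrd37, was followed in the medial prefrontal cortex of C57BL/6J mice after chronic intermittent ethanol (CIE). They were taken by gene symbol, and all 10 were found among the 24421 genes counted in each library. RNA sequencing covered 51 libraries of 17 mice, 8 control and 9 CIE, with 3 preparations from each mouse. The astrocyte preparation held cells caught by ACSA2, an antigen on the surface of astrocytes, the microglia preparation held cells of the ACSA2- remainder caught by CD11b, and total homogenate was a small portion of the suspension taken before dissociation. CIE mice spent 16 h of each exposure day breathing ethanol vapor, in 4 weekly cycles, and were given ethanol (1.6 g/kg) and pyrazole (1 mmol/kg) beforehand. Control mice were kept in air on the same schedule and were given saline and the same dose of pyrazole, an inhibitor of alcohol dehydrogenase, so that both groups carried this inhibitor. The capture beads select by 1 surface antigen each, and the cell types below are those that the labels name.

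When oxygen is sufficient, prolyl hydroxylases such as those made from Egln1 and Egln3 mark the alpha subunits of the hypoxia-inducible factors (HIF), and the ubiquitin ligase that contains Vhl sends them to degradation. When oxygen is short, the alpha subunits made from Hif1a and Epas1 persist, pair with Arnt and bind short DNA elements with the core ACGTG or GCGTG. Among their targets are secreted vascular factors (Vegfa, Adm), a collagen-modifying enzyme (P4ha1), a receptor for mitophagy (Bnip3), many enzymes of glycolysis, and the prolyl hydroxylases themselves. Since the alpha subunits are controlled mainly at the level of protein stability, their mRNA does not report their activity. Vegfa is secreted by astrocytes and acts on receptors of endothelial cells, and Epas1 is abundant in brain endothelial cells.

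Astrocyte libraries held 2082289 to 10041788 counts assigned to genes, microglia libraries 571878 to 6026453 and total homogenate libraries 5042926 to 15594154. Levels are given as CPM, the counts of a gene relative to the library total, scaled over the 51 libraries, and errors of levels are SD over mice. The labels were checked against markers of cell types by their summed CPM. Astrocyte markers (10 genes) stood at 14156 ± 2462 (SD, n = 8) in control astrocytes against 6819 ± 1037 (n = 8) in control total homogenate, and microglia markers (10 genes) at 32458 ± 4065 (n = 8) in control microglia against 829 ± 135 (n = 8). The astrocyte preparation also held oligodendrocyte markers (10 genes) at 19980 ± 2372 (n = 8) in control mice, above its astrocyte markers and above the 2198 ± 817 (n = 8) of total homogenate. Its microglia markers stood at 4048 ± 1774 (n = 8). A level in the astrocyte preparation is therefore that of a mixture in which oligodendrocyte transcripts were abundant.

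The first question was at what level the 10 genes stood in the 3 preparations of control mice. Handling differs between these, since total homogenate was taken before dissociation. Dissociation and immediate early markers (11 genes) stood at 754 ± 110 summed CPM (SD, n = 8) in control total homogenate. They stood at 6742 ± 2185 (n = 8) in control astrocytes and 33587 ± 5853 (n = 8) in control microglia. A difference between preparations is therefore one of cells and handling together, and the part of handling was not tested. A model of all 51 libraries with 6 groups was used, in which 77% of 14379 genes differed between control astrocytes and control total homogenate, 83.6% between control microglia and total homogenate and 69.8% between control astrocytes and microglia (edgeR, adjusted p under 0.05). Against these backgrounds, 10, 8 and 8 of the 10 genes differed, and these comparisons share control libraries and mice. In astrocytes against total homogenate 7 were higher and 3 lower (background 36.2% and 40.8%), in microglia against total homogenate 4 and 4 (37.5% and 46.1%), and in astrocytes against microglia 6 and 2 (34.1% and 35.6%). Egln3, Adm and Ankrd37 were under the filter on low counts in the microglia libraries alone and entered this model through the other preparations, so their calls against microglia carry no weight. Without them 6 of 7 genes were called in either comparison with microglia. Ranked by CPM per kb of exon, which allows genes to be compared, Ndrg1 (239 CPM per kb), Epas1 (155) and Vegfa (104) led in control astrocytes. P4ha1 (79.4 CPM per kb), Epas1 (60.0) and Ndrg1 (51.4) led in control microglia. In control total homogenate, Epas1 (65.5 CPM per kb), Egln1 (36.3) and Bnip3 (30.8) led. Egln3 was the lowest of the 10 in astrocytes (0.990 CPM per kb) and in microglia (0.352).

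The alpha subunits differed in their distribution. Hif1a (chr12:73901324-73947554, GRCm38, plus strand) stood at 156 ± 32.6 CPM (SD, n = 8) in control microglia, 93.9 ± 12.6 (n = 8) in astrocytes and 59.4 ± 7.76 (n = 8) in total homogenate, and each step of this order passed the test. Epas1 (chr17:86753864-86833410, plus strand) was highest in astrocytes, at 857 ± 181 CPM (n = 8). In control microglia Epas1 stood at 331 ± 199 CPM (n = 8) and in total homogenate at 361 ± 50.3 (n = 8), a difference of -0.12 on the log2 scale that did not pass the test (95% interval -0.61 to 0.37). The control microglia libraries spread from 109 to 648 CPM of Epas1, and across the 17 microglia libraries its deviations from the treatment means followed those of the endothelial markers (Pearson's r = 0.976, n = 17, a description over libraries that share treatment and depth). In the astrocyte preparation the same description gave r = 0.809 (n = 17). Epas1 in control microglia also differed by mouse number, with means of 125 CPM (mice 03 to 08), 264 (19 to 26) and 535 (35 to 41). The relation to endothelial markers was not computed with the means of these ranges removed.

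The oxygen sensors were highest in total homogenate rather than in the glial preparations. Egln1 (chr8:124908587-124949254, minus strand) was highest in control total homogenate, at 130 ± 14.3 CPM (SD, n = 8), against 84.9 ± 10.2 (n = 8) in microglia and 75.6 ± 5.93 (n = 8) in astrocytes. The latter pair differed by 0.18 on the log2 scale, which did not pass the test (edgeR adjusted p = 0.0934). It passed in fits without mouse 03, 23, 26 or 41, with an adjusted p down to 0.0314, while the highest over 17 fits was 0.641. Egln3 (chr12:54178981-54203874, minus strand) stood at 8.24 ± 1.25 CPM (n = 8) in total homogenate, 2.63 ± 1.04 (n = 8) in astrocytes and 0.937 ± 0.481 (n = 8) in microglia, where 1 control library had no count.

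Of the secreted factors, Vegfa (chr17:46016993-46032377, minus strand) had the steepest gradient. It stood at 365 ± 69.0 CPM (SD, n = 8) in control astrocytes, 98.9 ± 19.1 (n = 8) in total homogenate and 15.0 ± 5.06 (n = 8) in microglia, a log2 difference of 4.66 ± 0.26 (SE) between astrocytes and microglia. Within microglia, the deviations of Vegfa followed those of the astrocyte markers (r = 0.759, n = 17, a description). Adm (chr7:110627657-110629820, plus strand), the vasodilator peptide adrenomedullin, was low throughout, at 6.31 ± 2.04 CPM (n = 8) in control astrocytes, 4.20 ± 1.98 (n = 8) in microglia and 2.52 ± 1.11 (n = 8) in total homogenate. Since Adm was under the filter on low counts in the microglia libraries alone, its difference between astrocytes and microglia is given as levels only.

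P4ha1 (chr10:59323197-59373304, plus strand), the catalytic alpha subunit of a collagen prolyl hydroxylase, stood at 327 ± 79.2 CPM (SD, n = 8) in control microglia, 163 ± 20.6 (n = 8) in astrocytes and 73.1 ± 13.7 (n = 8) in total homogenate, and each step passed the test. Bnip3 (chr7:138890836-138909506, minus strand) had the opposite order, with 57.1 ± 12.1 CPM (n = 8) in total homogenate, 33.8 ± 3.29 (n = 8) in astrocytes and 23.2 ± 4.47 (n = 8) in microglia. Ndrg1 (chr15:66929318-66969641, minus strand), a stress-induced gene known from myelinating cells, stood at 689 ± 104 CPM (n = 8) in astrocytes, 149 ± 67.0 (n = 8) in microglia and 60.8 ± 14.6 (n = 8) in total homogenate. Its log2 difference between astrocytes and total homogenate was 3.50 ± 0.23 (SE). Within microglia, deviations of Ndrg1 followed those of the oligodendrocyte markers (r = 0.916, n = 17, a description). Ankrd37 (chr8:45996908-46000414, minus strand), a small ankyrin repeat protein, stood at 5.23 ± 1.32 CPM (n = 8) in astrocytes, 2.60 ± 1.56 (n = 8) in microglia and 2.80 ± 0.558 (n = 8) in total homogenate. Since Ankrd37 was under the filter on low counts in the microglia libraries alone, its difference between astrocytes and microglia is given as levels only. The exons of Bnip3 share 27.2% of their bases with the antisense gene Gm45507, those of Ankrd37 share 20.1% with Lrp2bp on the other strand and those of Ndrg1 share 14.5% with Gm17035, and the strand setting of the counting is not given in the sources used here.

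**Figure D1:**
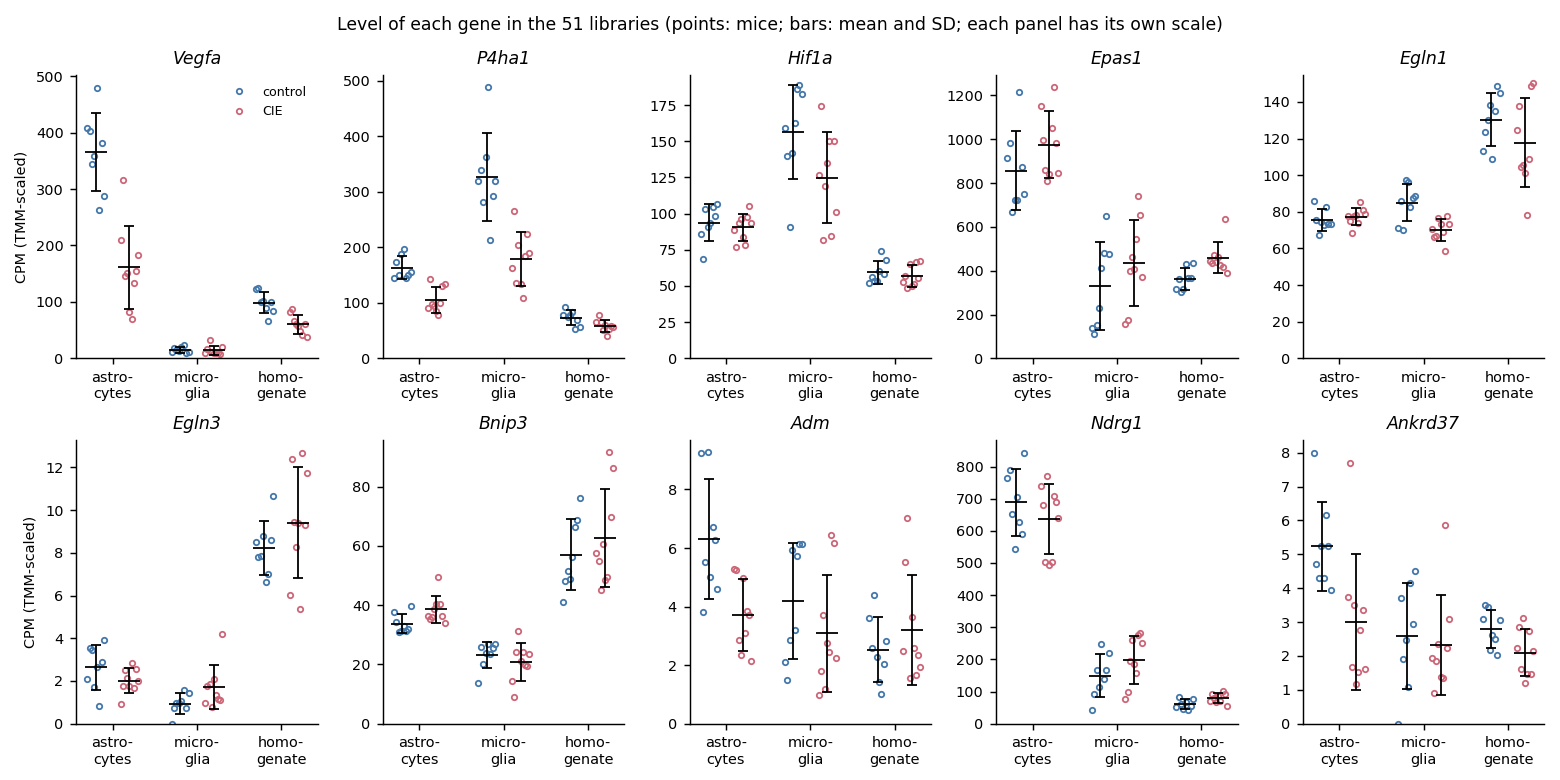
Level of each of the 10 genes in CPM (vertical axis, linear, each panel on its own scale) in control (blue) and CIE mice (red) for astrocytes, microglia and total homogenate, with 1 point per mouse and bars for mean and SD. Vegfa falls from 365 to 161 CPM in astrocytes, and P4ha1 from 327 to 179 CPM in microglia.

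In astrocytes of CIE mice, 3 of the 10 genes were lower than in control mice and none was higher, against a background of 5.01% of 12878 genes called, 2.16% lower and 2.85% higher (edgeR, adjusted p under 0.05). The 3 genes were Vegfa, P4ha1 and Adm. Neither alpha subunit and neither prolyl hydroxylase passed the test. The median log2 fold change of the 10 genes was -0.24, against 0.003 over all genes tested. The 10 genes were chosen with earlier results of these data known, so these values do not measure a shift of a set named beforehand.

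Vegfa ranged from 263 to 479 CPM (median 370) over the 8 control astrocyte libraries and from 70.5 to 316 CPM (median 151) over the 9 CIE libraries. All CIE mice lay below the control median and 8 of 9 below every control mouse, the exception being mouse 08 at 316 CPM. The log2 fold change was -1.19 ± 0.23 (SE, 95% interval -1.68 to -0.70, edgeR adjusted p = 0.00969). It was called in each of 17 fits that left out 1 mouse, with values from -1.39 to -1.09. In a bulk preparation, fewer cells of a type and less RNA per cell cannot be told apart.

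P4ha1 ranged from 144 to 197 CPM (median 153) in control astrocytes and from 78.0 to 143 CPM (median 98.8) in CIE astrocytes. The groups did not overlap, although the highest CIE library (142.5 CPM) lay close to the lowest control library (144.1 CPM). The share of all genes without overlap was not computed. The log2 fold change was -0.63 ± 0.12 (SE, 95% interval -0.88 to -0.38, edgeR adjusted p = 0.00773), and the call held in each of 17 fits without 1 mouse. With the oligodendrocyte marker level as a covariate, a setting chosen after the data were seen, it was -0.53 ± 0.13 (adjusted p = 0.0525), just short of the threshold, while Vegfa stayed past it at -1.07 ± 0.25 (adjusted p = 0.0470). Between groups, the oligodendrocyte markers ranged from 16184 to 22937 summed CPM in control and from 16696 to 23706 in CIE astrocytes. Of these 10 markers, 8 had a log2 fold change above 0 (median 0.15), and 1 was called, higher in CIE.

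Adm ranged from 3.82 to 9.28 CPM in control astrocytes and from 2.14 to 5.29 CPM in CIE astrocytes, and rested on 13 to 76 counts per control library. All 9 CIE mice lay below the control median of 5.90 CPM and 5 of them below every control mouse. The log2 fold change was -0.80 ± 0.22 (SE, edgeR adjusted p = 0.0384). This call was close to the threshold, since it held in 6 of 17 fits and was lost without mouse 03, 19, 20, 22, 23, 24, 26, 35, 36, 39 or 41, with adjusted p up to 0.0873. It was also lost with the marker level of oligodendrocytes (-0.60, adjusted p = 0.291) or oligodendrocyte precursors (-0.59, adjusted p = 0.178) as a covariate, neither of them planned beforehand.

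Ankrd37 was near the threshold. It ranged from 3.93 to 7.98 CPM in control and from 1.17 to 7.68 CPM in CIE astrocytes, where 8 of 9 mice lay below every control mouse and mouse 08 lay among them. The log2 fold change of -0.87 ± 0.29 (SE) had an adjusted p of 0.0812 in edgeR. Without mouse 08 it was -1.10 (adjusted p = 0.00850), and DESeq2 gave an adjusted p of 0.0413. The marker level of oligodendrocyte precursors as a covariate, not planned beforehand, gave -0.52 (adjusted p = 0.371).

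The remaining 6 genes did not pass the test in astrocytes. Hif1a stood at 93.9 ± 12.6 CPM (SD, n = 8) in control and 90.4 ± 9.33 (n = 9) in CIE mice, a log2 difference of -0.05 with a 95% interval of -0.22 to 0.11. Epas1 stood at 857 ± 181 (n = 8) and 976 ± 152 CPM (n = 9), with a log2 difference of 0.19 (95% interval -0.06 to 0.43). Egln1 had the narrowest interval, -0.09 to 0.16 around 0.04, and Egln3 a wide interval of -0.88 to 0.15 at 2.63 and 2.01 CPM. Bnip3 was at 33.8 ± 3.29 CPM (n = 8) in control and 38.6 ± 4.64 (n = 9) in CIE mice, with all 9 CIE mice above the control median, and its log2 difference of 0.20 had an adjusted p of 0.167. Ndrg1, the most abundant of the 10 per kb, stood at 689 and 637 CPM (log2 difference -0.12, 95% interval -0.35 to 0.12). Astrocyte markers ranged from 9878 to 17508 summed CPM in control and from 9017 to 15104 in CIE astrocytes. Of these 10 markers, 8 had a log2 fold change below 0, and 1 was called, higher. With their level as a covariate, not planned beforehand, Vegfa was at -1.18 and P4ha1 at -0.62, both past the threshold. Border macrophage markers in these libraries ranged from 50.8 to 207 summed CPM in control and from 76.5 to 299 in CIE mice, with 2 of 8 called, higher (Cd163 and Siglec1). Their deviations ran against those of Vegfa (r = -0.603, n = 17) and Ankrd37 (r = -0.592, n = 17), as a description, and their part in the falls was not tested.

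**Figure D2:**
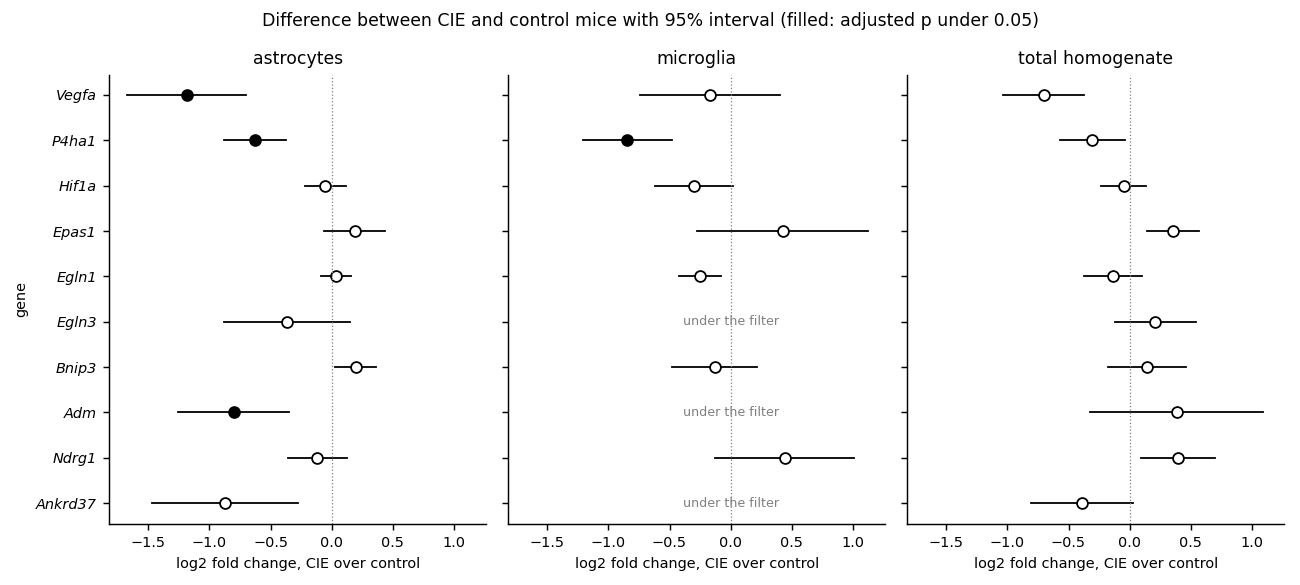
Log2 fold change of CIE over control (horizontal axis) with its 95% interval for each of the 10 genes in astrocytes, microglia and total homogenate, filled where the adjusted p was under 0.05. Vegfa, P4ha1 and Adm are filled in astrocytes at -1.19, -0.63 and -0.80, P4ha1 is filled in microglia at -0.85, and none is filled in total homogenate.

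To set these 3 genes beside the DNA element of their pathway, the 250 bases before a start listed for each in RefSeq (GRCm38.p6) were searched on both strands. The search was for ACGTG and GCGTG, the cores of hypoxia response elements. The Vegfa window is chr17:46032378-46032627 on the minus strand, that of P4ha1 is chr10:59323046-59323295 and that of Adm is chr7:110627407-110627656, both on the plus strand. They are printed as read toward the gene with matches in capitals, CACGT and CACGC being the same cores on the complementary strand.
Vegfa: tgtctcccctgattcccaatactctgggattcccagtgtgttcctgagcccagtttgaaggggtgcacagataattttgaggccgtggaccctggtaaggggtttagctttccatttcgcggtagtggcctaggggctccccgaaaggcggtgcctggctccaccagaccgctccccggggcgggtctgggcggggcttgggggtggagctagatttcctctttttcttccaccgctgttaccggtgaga
P4ha1: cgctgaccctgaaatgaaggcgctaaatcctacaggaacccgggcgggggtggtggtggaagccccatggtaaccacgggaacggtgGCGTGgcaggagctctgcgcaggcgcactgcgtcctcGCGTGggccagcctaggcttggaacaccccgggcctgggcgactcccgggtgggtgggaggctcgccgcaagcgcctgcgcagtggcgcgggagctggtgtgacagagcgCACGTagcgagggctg
Adm: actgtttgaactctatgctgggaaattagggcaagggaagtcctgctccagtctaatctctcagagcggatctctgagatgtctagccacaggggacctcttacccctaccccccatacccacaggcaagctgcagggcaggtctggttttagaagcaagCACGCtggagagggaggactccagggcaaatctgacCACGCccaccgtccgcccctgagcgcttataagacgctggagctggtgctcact
P4ha1 had 3 matches, Adm had 2, both GCGTG on the complementary strand, and the window before the outermost Vegfa start had none, which says only that these letters are not in it. The window before a second Vegfa start listed by RefSeq, inside the gene, had 2. The P4ha1 window ends at 59323295, past the gene start given above (59323197), and its CACGT match lies in that last stretch. Promoters were listed for 8 of the 10 genes (not for Epas1 and Ndrg1) as 9 windows, of which 8 held a match and 7 held ACGTG. Of all 32851 promoters in the table, 38.6% held a match of either core and 16.6% held ACGTG. These shares are not matched for base composition, since these 9 windows had 50.8% to 86% G and C against a median of 52.4% over all promoters. Bnip3 had the most matches (5), Ankrd37 had 4, Hif1a had 3, Egln1 had 2 and Egln3 had 1. The windows of Hif1a (chr12:73907617-73907866) and Ankrd37 (chr8:45999851-46000100) lie inside the gene bounds given above, so their matches are not upstream of the gene. A match is a description of the sequence, and its part in the changes was not tested.

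In microglia of CIE mice, P4ha1 was lower and the other genes did not pass the test. Of the 10 genes, 7 passed the filter on low counts and 1 was called, lower, against a background of 3.43% of 10761 genes called, 1.14% lower and 2.29% higher (edgeR, adjusted p under 0.05). P4ha1 ranged from 213 to 489 CPM (median 319) over the 8 control libraries and from 110 to 264 CPM (median 184) over the 9 CIE libraries. All 9 CIE mice lay below the control median and 7 below every control mouse. The log2 fold change was -0.85 ± 0.17 (SE, 95% interval -1.21 to -0.48, edgeR adjusted p = 0.0108), and the call held in each of 17 fits without 1 mouse, with values from -0.94 to -0.74.

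The fall of P4ha1 in microglia moved together with the microglia markers. Their summed level ranged from 29797 to 42097 CPM in control and from 22373 to 28953 CPM in CIE microglia without overlap, 10 of 10 markers had a log2 fold change below 0 and 1 was called lower. Within treatment groups, deviations of P4ha1 followed those of the microglia markers (r = 0.737, n = 17, a description). With the microglia marker level as a covariate, which differs between the groups, P4ha1 was at -0.24 ± 0.18 (SE, adjusted p = 0.876), and with the oligodendrocyte marker level at -0.79 ± 0.19 (adjusted p = 0.0604). Neither of these covariates was planned beforehand. Oligodendrocyte markers ranged from 2076 to 7405 summed CPM in control and from 2323 to 9615 in CIE microglia. Of these markers, 10 of 10 had a log2 fold change above 0 (median 0.68), and 1 was called, higher. Neutrophil markers ranged from 604 to 1206 summed CPM in control and from 799 to 7462 in CIE microglia, 8 of the 10 tested were called higher, and with their level as a covariate P4ha1 was at -0.67 ± 0.20 (adjusted p = 0.173). The part of these markers in the change of P4ha1 was not tested further.

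Vegfa in microglia stood at 15.0 ± 5.06 CPM (SD, n = 8) in control and 14.0 ± 8.35 (n = 9) in CIE mice, a log2 difference of -0.17 with a 95% interval of -0.74 to 0.40. Egln1 stood at 84.9 ± 10.2 (n = 8) and 70.2 ± 5.88 CPM (n = 9), with all 9 CIE mice below the control median. Its log2 difference of -0.25 ± 0.08 (SE) had an adjusted p of 0.104 in edgeR and 0.0491 in DESeq2. Hif1a stood at 156 ± 32.6 (n = 8) and 125 ± 31.4 CPM (n = 9), a log2 difference of -0.30 (95% interval -0.62 to 0.02). For Epas1 (log2 difference 0.42, 95% interval -0.28 to 1.12) and Ndrg1 (0.44, 95% interval -0.13 to 1.01), which followed endothelial and oligodendrocyte markers among these libraries, the intervals were wide. With the oligodendrocyte marker level as a covariate, not planned beforehand, they were at -0.28 and -0.20. Other lists ran with both genes too, such as pericyte and smooth muscle markers (r = 0.961 for Epas1 and 0.810 for Ndrg1, n = 17, a description). Bnip3 had a log2 difference of -0.13 (95% interval -0.48 to 0.22). The 3 genes under the filter were Egln3 with 0.937 ± 0.481 CPM (n = 8) in control and 1.70 ± 1.03 (n = 9) in CIE mice, Adm with 4.20 ± 1.98 and 3.08 ± 2.01, and Ankrd37 with 2.60 ± 1.56 and 2.33 ± 1.48. These rested on 1 to 34 counts per library, apart from 1 library each of Egln3 and Ankrd37 with none, and were not tested.

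In total homogenate none of the 10 genes passed the edgeR test, against a background of 0.257% of 13982 genes called, 0.193% higher and 0.0644% lower. At an unadjusted p under 0.05 in edgeR there were 4 (Vegfa, P4ha1, Epas1 and Ndrg1), against 9.14% of all genes tested. DESeq2 called 2 of the 10 (Vegfa and Epas1) and 204 genes in all, against 36 in edgeR. Vegfa ranged from 67.0 to 124 CPM (median 99.9) in control and from 38.5 to 86.9 CPM (median 60.7) in CIE mice, with all 9 CIE mice below the control median and 7 below every control mouse. Its log2 fold change was -0.70 ± 0.16 (SE, 95% interval -1.04 to -0.37, edgeR adjusted p = 0.0769). Without mouse 08 it was -0.78 (adjusted p = 0.0462), with mouse-number range in the model -0.72 (adjusted p = 0.00260) and in DESeq2 -0.70 (adjusted p = 0.00494). Astrocyte markers ranged from 5945 to 8560 summed CPM in control and from 4313 to 8491 in CIE total homogenate. Of these 10 markers, 8 had a log2 fold change below 0, and 1 was called, higher. With their level as a covariate, not planned beforehand, Vegfa was at -0.66 (adjusted p = 0.0621).

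Epas1 differed upward in total homogenate, from 302 to 435 CPM (median 363) in control to 388 to 635 CPM (median 442) in CIE mice. All 9 CIE mice lay above the control median and 6 above every control mouse. The log2 fold change of 0.35 ± 0.10 (SE) had an adjusted p of 0.211 in edgeR and 0.0430 in DESeq2, and it was 0.29 without mouse 40, the highest library. With the endothelial marker level as a covariate it was 0.26 (adjusted p = 0.436), and endothelial markers ranged from 255 to 558 summed CPM in control and from 299 to 540 in CIE mice. Ndrg1 stood at 60.8 ± 14.6 CPM (SD, n = 8) and 79.4 ± 14.9 (n = 9), a log2 difference of 0.39 (adjusted p = 0.353), with 8 of 9 CIE mice above the control median. Among the marker lists, its deviations followed those of the oligodendrocyte markers most closely (r = 0.720, n = 17, a description). In total homogenate all 10 of these markers had a log2 fold change above 0 (median 0.49), and none was called. P4ha1 stood at 73.1 ± 13.7 (n = 8) and 58.8 ± 10.8 CPM (n = 9), a log2 difference of -0.31 (95% interval -0.57 to -0.04, adjusted p = 0.452). The other intervals all held 0, at -0.24 to 0.14 for Hif1a, -0.38 to 0.10 for Egln1, -0.12 to 0.54 for Egln3, -0.18 to 0.46 for Bnip3, -0.32 to 1.09 for Adm and -0.81 to 0.03 for Ankrd37.

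Whether a gene responded differently in 2 preparations was tested by interaction terms in the model of all 51 libraries, where 0.522% of 14379 genes were called for astrocytes minus microglia, 0.00695% for astrocytes minus total homogenate and 0.828% (0.563% higher, 0.264% lower) for microglia minus total homogenate. None of the 10 genes was called in edgeR or in DESeq2, and 3, 1 and 2 of them had an unadjusted p under 0.05, against 10.9%, 4.97% and 11% of all genes. Among these 3 and 2 were Egln3 and Adm respectively, both under the filter in microglia alone. The response of Vegfa differed by -0.99 ± 0.35 (SE, 95% interval -1.69 to -0.28, adjusted p = 0.234) between astrocytes and microglia, so the lack of a call in microglia does not show a different response. For P4ha1 the response in astrocytes minus that in microglia was 0.24 (95% interval -0.17 to 0.65), and in microglia minus total homogenate it was -0.56 ± 0.21 (SE, adjusted p = 0.227). The latter passed the threshold when the mouse, from which the 3 preparations come, entered as a replicate block (-0.57 ± 0.14, adjusted p = 0.0304). The shares over all genes above are of the model without this block, and that of the block fit is not given here. Adm differed by -1.17 ± 0.41 (SE, adjusted p = 0.713) between astrocytes and total homogenate, where its log2 fold changes were -0.80 and 0.38.

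The mouse numbers fell into 3 ranges (03 to 08, 19 to 26 and 35 to 41), which the labels do not explain, with 2, 3 and 3 control and 2, 4 and 3 CIE mice. In astrocytes the log2 ratio of mean levels for Vegfa was -0.62, -1.80 and -0.98 in these ranges, and for P4ha1 it was -0.44, -0.995 and -0.31. For P4ha1 in microglia it was -0.62, -1.37 and -0.46, and for Vegfa in total homogenate -0.55, -0.73 and -0.82. Adm in astrocytes gave -0.27, -0.82 and -0.70, and Epas1 in total homogenate 0.38, 0.37 and 0.30. Each of these 6 thus kept its direction in each range, and within the range 19 to 26 both Vegfa and P4ha1 had their largest fall in astrocytes.

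**Figure D3:**
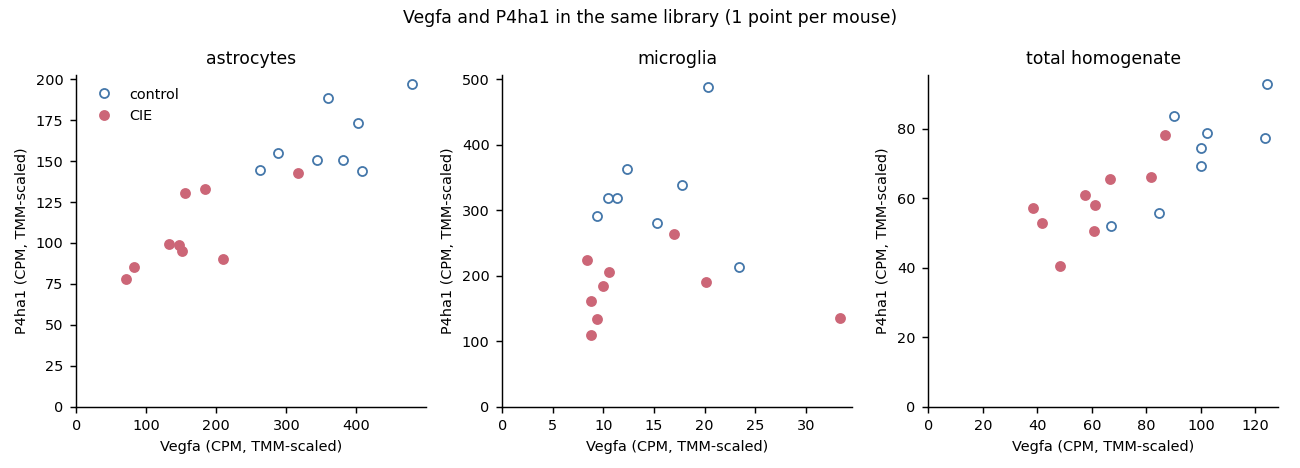
P4ha1 (vertical axis) against Vegfa (horizontal axis), both in CPM on linear axes from 0, in the same library for each of 17 mice in astrocytes, microglia and total homogenate, with control mice as open and CIE mice as filled points. In astrocytes the CIE points lie at lower values of both genes, apart from mouse 08, whose Vegfa (316 CPM) is within the control range. Its P4ha1 (142.5 CPM) lies just below every control library.

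Whether the 10 genes varied together beyond treatment was asked of their deviations from the treatment means over 17 mice, in 111 pairs within preparations. After adjustment over the 111 pairs, 1 pair passed, Hif1a with Bnip3 in total homogenate (Pearson's r = 0.824, permutation p = 0.00023, adjusted p = 0.0255; Spearman's rho = 0.865, permutation p = 7e-05, adjusted p = 0.00777). Without the 2 mice farthest from the median of Hif1a, r was 0.817, and with the means of the ranges of mouse numbers removed it was 0.755. Both genes went against the border macrophage markers in these libraries (r = -0.85 for Hif1a and -0.86 for Bnip3, n = 17, a description). Other lists behaved likewise, namely microglia (-0.84 and -0.79), red blood cell (-0.74 and -0.78) and neutrophil markers (-0.68 and -0.72). Neuron markers went with both genes (0.48 and 0.78), so the relation is not particular to border macrophage markers. Vegfa and P4ha1 had r = 0.735 in astrocytes (permutation p = 0.00284, adjusted p = 0.0631; rho = 0.515, permutation p = 0.0556, adjusted p = 0.326), which fell to 0.496 without the 2 mice farthest from the median of Vegfa. In total homogenate they had r = 0.723 (permutation p = 0.00152, adjusted p = 0.0562; rho = 0.738, permutation p = 0.00172, adjusted p = 0.0725). Neither passed after adjustment.

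The genes whose deviations were most like those of the called genes were listed by Pearson's r over 17 libraries, as a description. For Vegfa in astrocytes they were Kifc3 (r = 0.914), Sox21 (0.910) and Appl2 (0.909) of 12877 genes compared. For P4ha1 in astrocytes they were Sema4b (0.846), the phosphofructokinase gene Pfkp (0.838) and Nmnat1 (0.818), and in microglia they were Gna12 (0.920), Atmin (0.892) and Oxct1 (0.874). For Adm in astrocytes they were Slc6a20a (0.793), Klhl26 (0.787) and Grtp1 (0.781).

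The other genes of the pathway were read from a list of 87 genes, 86 of them in the files. This list too was chosen with earlier results of these data known. In astrocytes 2 of the 79 tested were called higher and 4 lower, against 2.85% and 2.16% of all genes, with a median log2 fold change of -0.05. The 23 genes of glucose and lactate metabolism had none higher and 3 lower, and 19 of 23 had a fold change below 0 (median -0.15), against 49.3% of all genes tested. The 3 were the phosphofructokinase subunits Pfkl (98.5 to 69.4 CPM, log2 -0.51 ± 0.09 SE, edgeR adjusted p = 0.00515) and Pfkp (97.0 to 64.0 CPM, -0.60 ± 0.11, adjusted p = 0.00532), and the mitochondrial adenylate kinase Ak4 (50.3 to 33.1 CPM, -0.61 ± 0.16, adjusted p = 0.0360). Of 9 collagen and matrix enzymes tested, Plod2, a collagen lysyl hydroxylase, fell from 13.9 to 9.19 CPM (-0.60 ± 0.12, adjusted p = 0.0105). Ctgf, a secreted matrix protein, rose from 15.4 to 29.1 CPM (0.95 ± 0.17, adjusted p = 0.00534). Ddit4, an inhibitor of mTOR signaling that is also induced by glucocorticoids, rose from 103 to 164 CPM (0.67 ± 0.15, adjusted p = 0.0141).

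Of 3 other HIF subunits and partners (2 tested in microglia) and 11 genes of oxygen sensing and HIF turnover, none was called in any preparation by edgeR, while at an unadjusted p under 0.05 astrocytes had 1 subunit and 3 turnover genes, microglia 1 and 1, and total homogenate 1 and 2. Over all genes these shares were 20.8%, 17% and 9.14%. Hif3a, the third alpha subunit, stood at 34.8 ± 25.6 CPM (SD, n = 8) in control and 75.2 ± 50.3 (n = 9) in CIE astrocytes, a log2 difference of 1.11 ± 0.44 (SE, adjusted p = 0.154). In total homogenate it stood at 8.36 ± 3.74 (n = 8) and 19.2 ± 13.4 CPM (n = 9), 1.17 ± 0.38 (SE, adjusted p = 0.266), with overlapping groups in both. In astrocytes the partners Arnt (-0.11) and Arnt2 (0.00042), the hydroxylases Egln2 (0.20) and Hif1an (-0.11) and the ligase component Vhl (-0.20) had these small log2 differences, and none passed the test. In microglia Arnt2 was at 0.59 (adjusted p = 0.133), Arnt at -0.09, Egln2 at -0.11, Vhl at -0.14 and Hif1an at 0.02. In total homogenate these 5 lay between -0.17 (Vhl) and 0.05 (Arnt).

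Of the vascular receptors none was called. The Vegfa receptor Kdr stood at 113 ± 46.9 CPM (SD, n = 8) in control and 80.0 ± 34.2 (n = 9) in CIE astrocytes (log2 -0.50, edgeR adjusted p = 0.240), Flt1 had -0.19 and the co-receptor Nrp1 had -0.21. Ramp2, which with Calcrl forms an adrenomedullin receptor, stood at 30.9 ± 10.6 (n = 8) and 49.6 ± 19.2 CPM (n = 9), a log2 difference of 0.71 ± 0.23 (SE, adjusted p = 0.0862), and Calcrl had -0.16. In microglia Flt1, Kdr, Nrp1, Calcrl and Ramp2 had -0.00043, -0.31, -0.35, 0.08 and 0.44, and in total homogenate -0.02, -0.24, 0.13, -0.06 and 0.44.

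In microglia 2 of the 69 genes tested were called higher and 1 lower, against 2.29% and 1.14% of all genes, with a median of -0.06. Ddit4 rose from 41.8 ± 9.37 CPM (SD, n = 8) to 143 ± 50.2 (n = 9), a log2 fold change of 1.78 ± 0.19 (SE, edgeR adjusted p = 8.01e-05). The glucose transporter Slc2a3 rose from 15.5 to 39.8 CPM (1.37 ± 0.25, adjusted p = 0.00488), and the Vegfa relative Vegfb fell from 62.9 to 42.5 CPM (-0.55 ± 0.12, adjusted p = 0.0132). In total homogenate 2 of 81 were called higher and none lower, against 0.193% and 0.0644% of all genes. Hmox1, which degrades heme, rose from 5.78 to 10.7 CPM (0.89 ± 0.14, adjusted p = 0.00927) and Ddit4 rose from 37.5 to 53.7 CPM (0.52 ± 0.11, adjusted p = 0.0464). Ddit4 was thus the 1 gene of the list called in each preparation.

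**Figure D4:**
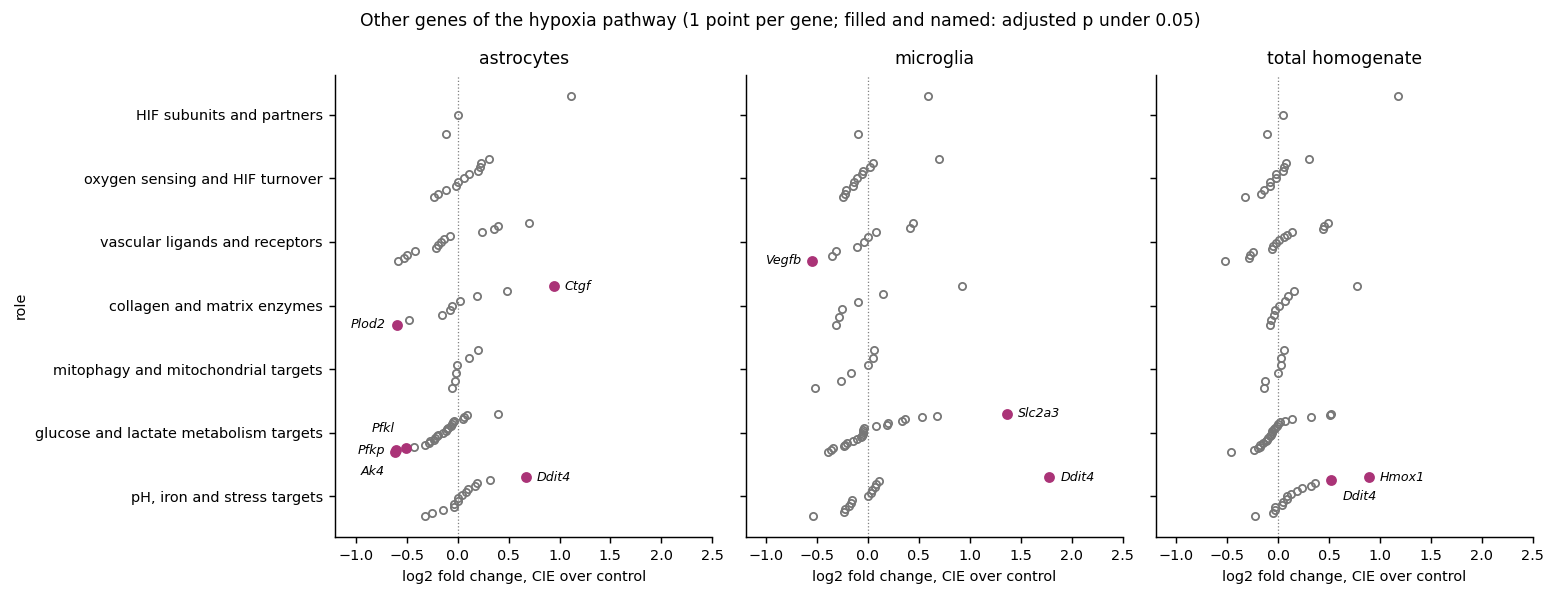
Log2 fold change of CIE over control (horizontal axis) for the other genes of the hypoxia pathway grouped by role (vertical axis) in astrocytes, microglia and total homogenate, with 1 point per gene tested and those with an adjusted p under 0.05 filled and named. Most points lie near 0, and Ddit4 is filled in all 3 preparations at 0.67, 1.78 and 0.52.

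**Figure D5:**
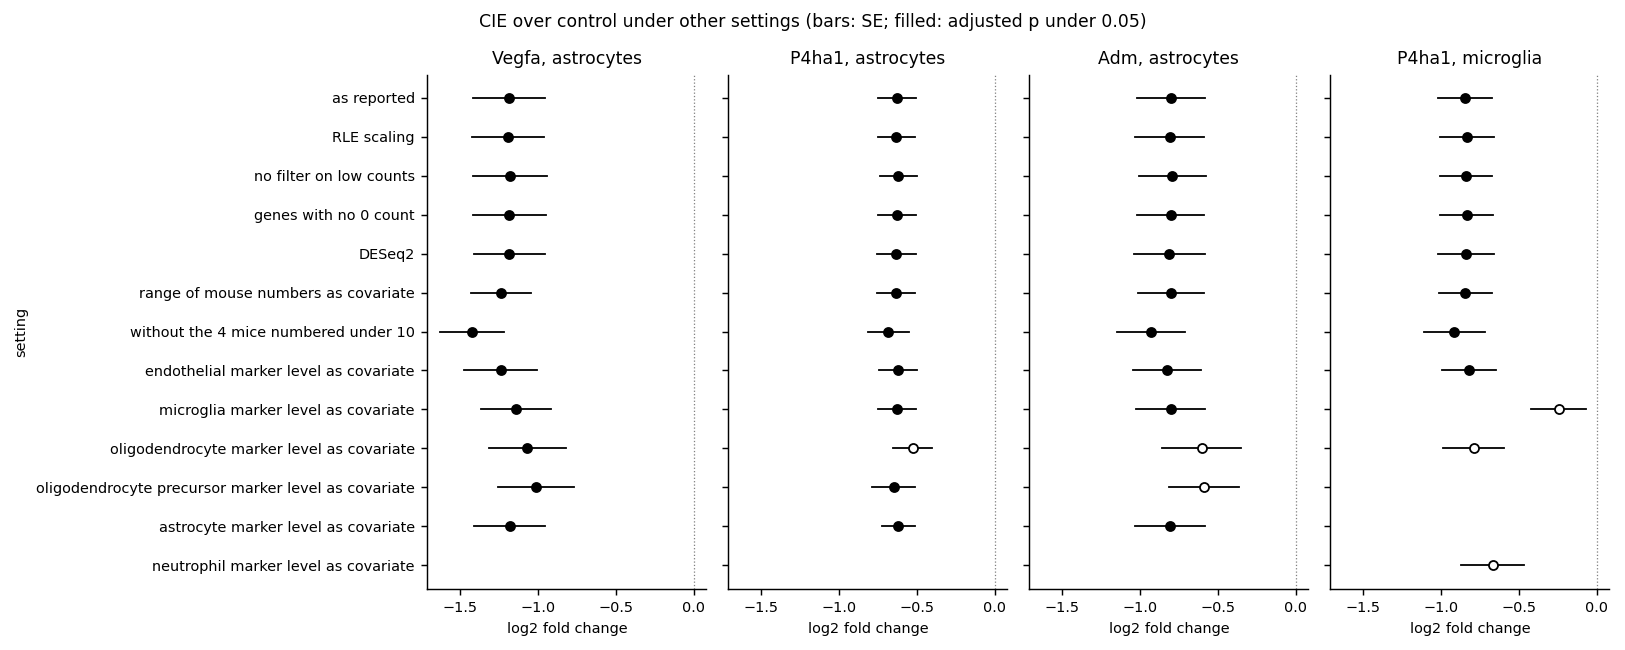
Log2 fold change of CIE over control (horizontal axis, bars for SE) for Vegfa, P4ha1 and Adm in astrocytes and P4ha1 in microglia under each setting tried (vertical axis), filled where the adjusted p was under 0.05. Vegfa is filled under every setting shown, and P4ha1 in microglia moves from -0.85 to -0.24 with the microglia marker level as a covariate.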

How the data were processed

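Medial prefrontal cortex RNA was poly(A)-selected and made into libraries with a kit that keeps strand. Per the labels and the submitters' processing notes, the authors used cutadapt 1.8, STAR 2.5.0a and HTSeq 0.6.1p1 on mm10 and deposited whole-number read counts per gene, which are not normalized. The annotation release and strand setting are not given in the sources used here. Rows that name no gene (22.1% to 67.1% of counts per library) were left out.

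Each preparation was tested with edgeR 4.0.16 (quasi-likelihood, TMM scaling, filterByExpr, Benjamini-Hochberg, threshold 0.05), and preparations were compared in 1 model of 51 libraries. Standard errors follow from the F statistic. Member CPM used TMM factors over all 51 libraries. DESeq2 1.42.0, other scalings and filters, marker and mouse-number covariates, and leaving out each mouse were alternatives. Some marker covariates were not planned beforehand. These were oligodendrocyte, oligodendrocyte precursor and astrocyte markers in astrocytes, oligodendrocyte and microglia markers in microglia, and astrocyte markers in total homogenate. The scripts were tested on simulated counts.

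The mouse number in the labels ties the 3 preparations to 1 animal, so the mouse was also entered as a replicate block. Deviations from group means correlated within mice with a median r of 0.149 (astrocytes and microglia), 0.112 (astrocytes and total homogenate) and 0.0394 (microglia and total homogenate).

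The members and lists were chosen with earlier results of these data known. The text names all 10 members, called genes of the wider list, its preset subunits, sensors and receptors, and the 3 genes most like each called member.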

Additional observations from a re-analysis of the deposited data

Results flagged for a closer look

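Among 60 combinations of gene and group, 6 held a library far above the others of its group by Dixon's test, and chance alone gives this in about 1 of 20 groups. In CIE astrocytes these were Ankrd37 in mouse 08 (7.68 CPM) and Bnip3 in mouse 26 (49.4 CPM). In CIE microglia they were Vegfa in mouse 23 (33.3 CPM), Egln3 in mouse 41 (4.20 CPM) and Ankrd37 in mouse 39 (5.87 CPM). In CIE total homogenate it was Epas1 in mouse 40 (635 CPM).

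Genes of the wider list were called for a different response between preparations by interaction terms (edgeR, adjusted over 14379 genes). In astrocytes minus microglia, the log2 response differed by -1.28 for Slc2a3 (adjusted p = 0.0394), by -1.24 for Pfkp (adjusted p = 0.0290) and by -1.09 for Ddit4 (adjusted p = 0.0121). In microglia minus total homogenate, it differed by 1.55 for Slc2a3 (adjusted p = 0.00220), by 1.25 for Ddit4 (adjusted p = 0.00233), by -1.43 for Hmox1 (adjusted p = 0.00595) and by 0.87 for P4htm, a membrane-bound prolyl hydroxylase (adjusted p = 0.0407).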

How the results depend on the processing

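Of 270 fold changes of the 10 genes under other settings, 253 kept direction and call, 6 lost the call, 8 gained it and 3 changed sign, and of 459 without 1 mouse the numbers were 445, 11, 2 and 1. The sign changes in microglia were Epas1 (-0.28) and Ndrg1 (-0.20) with the oligodendrocyte marker level as a covariate and Vegfa (0.066) with the microglia marker level. Between preparations, Ankrd37 in microglia against total homogenate changed sign with RLE scaling (-0.012) and DESeq2 (-0.00067), and the response of Hif1a in astrocytes minus total homogenate with RLE scaling (-0.026), DESeq2 (-0.026) and a fit of those groups alone (-0.015).

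Genes called in astrocytes (645) numbered 1157 in DESeq2, 1111 with the range of mouse numbers, 1113 without the 4 mice numbered under 10, 300 with precursor markers and 120 with oligodendrocyte markers, where 1 of the 10 genes was called. In microglia (369) they numbered 767 (2 of the 10), 751, 704, 55 with neutrophil (0 of the 10), 71 with oligodendrocyte (0) and 19 with microglia markers (0). In total homogenate (36) they numbered 204 (2 of the 10), 81 (1), 7, 12 with endothelial, 6 with oligodendrocyte and 61 with astrocyte markers. For responses, astrocytes minus microglia (75) gave 44 with no filter, 182 in DESeq2 and 44 with those groups alone, astrocytes minus total homogenate (1) gave 0 with RLE scaling and 5 in DESeq2, and microglia minus total homogenate (119) gave 248 in DESeq2 and 60 with those groups alone. The causes were not tested.

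With the mouse as a replicate block, 1 of the 10 genes was called for microglia minus total homogenate (P4ha1), and the block changed no other call of the 10 genes. The share of all genes called in this alternative fit is not given here, so the call has no background beside it.

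Without 1 mouse, astrocytes gave 338 to 995 called genes, microglia 177 to 674 and total homogenate 15 to 71 (0 to 1 of the 10), and for responses from 23 to 124, 0 to 2 and 49 to 187. Fold changes that crossed 0 were Hif1a in total homogenate (-0.081 to 0.0018) and Ankrd37 in microglia against total homogenate (-0.051 to 0.22). Responses that did were Adm in astrocytes minus microglia (-0.40 to 0.042), Hif1a (-0.048 to 0.046) and Bnip3 (-0.035 to 0.14) in astrocytes minus total homogenate, and Epas1 (-0.10 to 0.26), Ndrg1 (-0.10 to 0.15) and Ankrd37 (-0.17 to 0.21) in microglia minus total homogenate. Depth limits Egln3, Adm and Ankrd37 most, which rest on few counts in microglia.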

Other observations

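Genes of the wider list that were under the filter in microglia can be given as levels only. Hif3a stood at 2.55 ± 1.76 CPM (SD, n = 8) in control and 19.1 ± 19.7 (n = 9) in CIE microglia, with CIE mice from 1.76 to 63.6 CPM. Ak4 stood at 2.33 ± 1.61 (n = 8) and 2.44 ± 1.70 CPM (n = 9), and Plod2 at 1.98 ± 1.42 (n = 8) and 2.22 ± 1.02 (n = 9), both of which fell in astrocytes.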
